A study of Homo sapiens with 6 samples.

Results

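The SLC25 family of mitochondrial solute carriers was examined in SW480, an established cell line from a human colorectal adenocarcinoma, given MPM-1 or DMSO for 24 h. Members were the genes of the deposited table whose symbol starts with SLC25A, which gave 41 of the 12982 genes listed. MPM-1, called WT4 in the sample labels, is a fluorescent small molecule that gathers in mitochondria, and DMSO was its solvent and the control. Each treatment had 3 RNA libraries of the same unmodified line, and nothing in the labels says whether these came from separate cultures, so p-values measure the spread between libraries. The dose given for this experiment is not stated in the sources used here.

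Carriers of this family share a fold with 6 membrane-spanning helices and sit, with few exceptions, in the inner mitochondrial membrane, which is closed to most charged molecules. Each moves a narrow set of substrates, such as ADP and ATP, phosphate, citrate, amino acids, coenzymes or iron, often by exchanging one for another. In a rapidly dividing epithelial cell they supply the respiratory chain with ADP and phosphate and send citrate and aspartate to the cytosol for biosynthesis.

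GENCODE release 29 lists 48 protein-coding genes with such a symbol. The other 7 (SLC25A2, SLC25A18, SLC25A21, SLC25A31, SLC25A47, SLC25A52 and SLC25A53) had no row in the table, whose least abundant gene had 115 counts over all libraries, and they were not analysed here. The 41 members lay on 18 chromosomes with at most 5 on one. Totals were 32095456 to 40269820 counts per DMSO library and 31733667 to 35403841 per MPM-1 library, of which SLC25A genes took 0.373% ± 0.00251 in DMSO and 0.313% ± 0.00295 after MPM-1 (SD, n = 3 each). Of 9 colon epithelial markers, all 9 were listed, with KRT8 at 4096 CPM in DMSO, and they moved both ways at an adjusted p under 0.05 (edgeR). KRT18 (0.89), KRT19 (0.89), CDH1 (0.82), LGALS4 (0.50) and KRT8 (0.42) rose, VIL1 (-0.88), KRT20 (-2.03) and CDX2 (-2.20) fell, and EPCAM did not pass. Of 8 markers of blood, endothelial and connective tissue cells, 1 was listed (COL1A1, 2.97 CPM in DMSO and 0.70 after MPM-1). In bulk RNA, fewer cells of a kind and less RNA per cell cannot be told apart.

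MPM-1 changed a minority of the carriers strongly and a larger number mildly. Calls came from edgeR's quasi-likelihood fit of all genes and needed both an adjusted p below 0.01 and a log2 change of 1 or more either way. By that rule SLC25A25, SLC25A27 and SLC25A36 were higher after MPM-1, and SLC25A48 was among the 2 that were lower. This is 5 of 41 members (12.2%), beside 14.3% of all genes tested, so the share called was near the background. The 3 higher members (7.32%) stood beside 5.58% of all genes, and the 2 lower ones (4.88%) beside 8.75%.

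With an adjusted p-value under 0.05 and no fold threshold, 20 members passed (48.8%, beside 56.5% of all genes). Of these, 5 rose (12.2%, beside 27.7%) and 15 fell (36.6%, beside 28.8%). The remaining 21 did not pass. The median log2 fold change of the 41 members was -0.16, beside -0.026 for all genes, and 27 of the 41 had a negative value (65.9%, beside 51.6% of all genes). The MPM-1 and DMSO libraries did not overlap in 25 members (61.0%, beside 64.3%). The median of all genes was -0.18 with scaling by library size alone and that of the members -0.31, so the members lay 0.13 below all genes under either scaling.

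**Figure D1:**
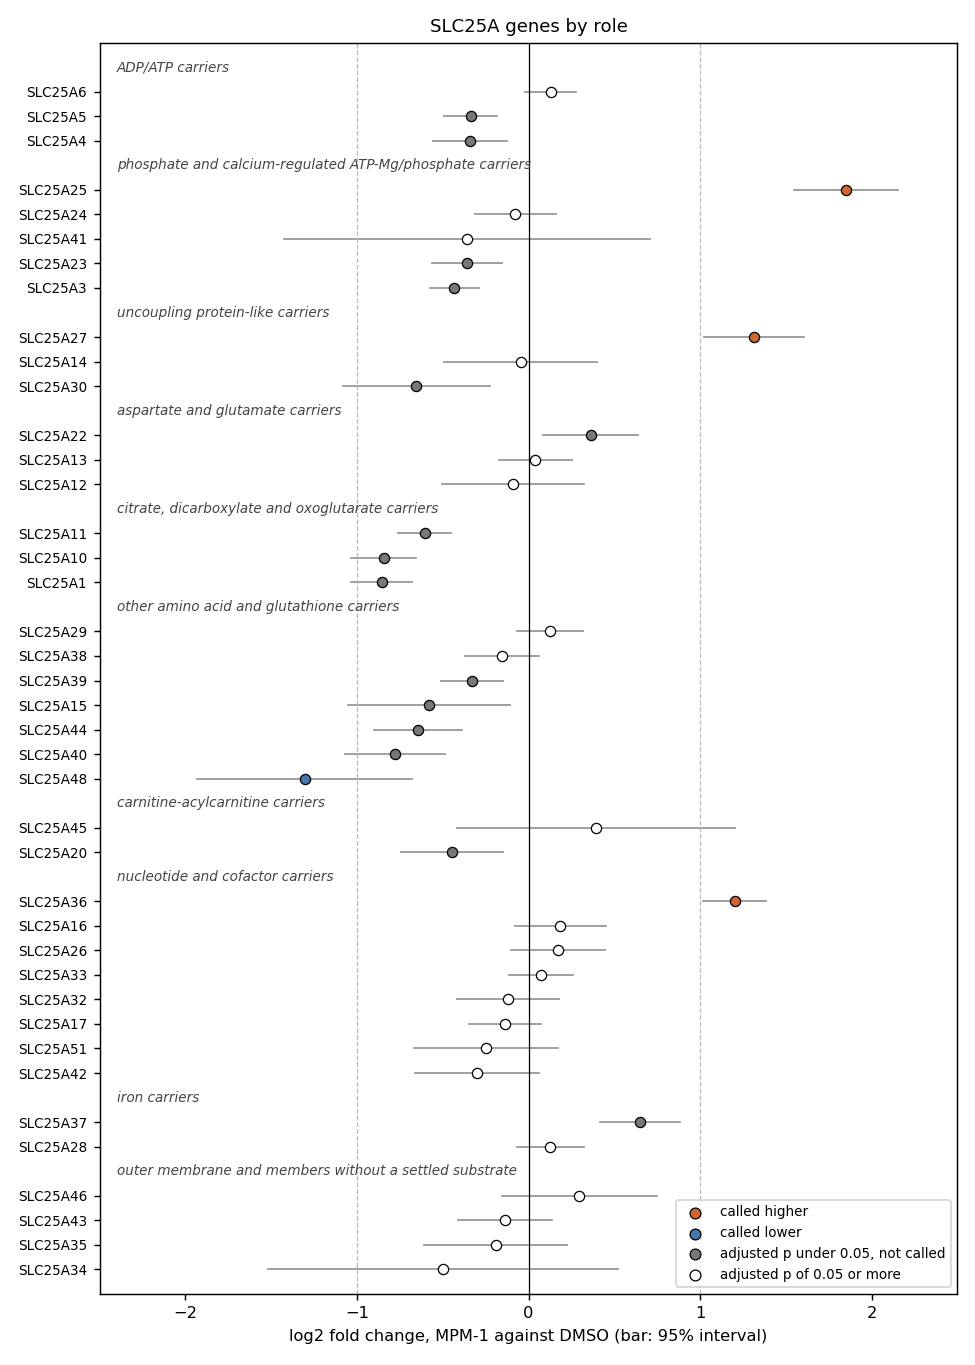
Log2 fold change of 40 of the 41 SLC25A genes, MPM-1 against DMSO (3 libraries each), with its 95% interval, grouped by role. SLC25A25 (1.85), SLC25A27 (1.31) and SLC25A36 (1.20) lie beyond the upper dashed line at 1, and SLC25A48 (-1.31) beyond the lower one.

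SLC25A25, also known as SCaMC-2, exchanges ATP-Mg for phosphate across the inner membrane and is switched on by calcium. It had the largest rise of the family. Its level was 53.8, 38.0 and 45.1 CPM (counts relative to library size, scaled by TMM) in DMSO replicates 1 to 3 and 179, 143 and 171 CPM in MPM-1 replicates 1 to 3. All MPM-1 libraries were above all DMSO libraries, and the mean went from 45.6 ± 7.89 to 164 ± 18.8 CPM (SD, n = 3 each). This was a 3.61-fold rise, or 1.85 in log2 with a standard error (SE) of 0.13 (adjusted p = 5.58e-06, edgeR). Leaving out each library in turn gave 1.73 to 1.98, called each time. The gene (ENSG00000148339) lies on chromosome 9 at 128068201 to 128109245 on the plus strand of GRCh38. It overlaps NAIF1 on the other strand, which had 10.2 CPM in DMSO and 6.43 CPM after MPM-1.

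RefSeq lists 3 promoters for SLC25A25, and gene counts do not tell which starts were used. The most downstream of them, chr9:128098257-128098556 on the plus strand of GRCh38.p14, is shown because it holds the letters TGACGTCA, the cAMP response element bound by CREB and ATF factors. The element is in capitals and begins 200 bases before the transcript start.
SLC25A25 promoter: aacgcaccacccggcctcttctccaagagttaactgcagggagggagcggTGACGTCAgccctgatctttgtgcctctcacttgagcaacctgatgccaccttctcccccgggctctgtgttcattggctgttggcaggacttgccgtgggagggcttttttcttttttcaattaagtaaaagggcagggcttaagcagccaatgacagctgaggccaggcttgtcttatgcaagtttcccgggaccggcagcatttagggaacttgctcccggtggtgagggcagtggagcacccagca

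SLC25A36 carries pyrimidine nucleotides, which mitochondria need to copy and transcribe their DNA. It had 77.1, 87.0 and 80.1 CPM in the DMSO libraries and 195, 175 and 192 CPM in the MPM-1 libraries. Each MPM-1 value was above every DMSO value, and the rise was 2.30-fold, a log2 change of 1.20 ± 0.081 (SE; adjusted p = 3.79e-06, edgeR). It stayed between 1.16 and 1.27 with one library left out. The gene (ENSG00000114120) lies on chromosome 3 at 140941830 to 140980961, plus strand, overlapping AC108727.1 on the same strand, and has 1 annotated pseudogene.

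The promoter of SLC25A36, chr3:140941586-140941885 on the plus strand of GRCh38.p14, is shown for the same element. In capitals are CACGTG, the E-box bound by MYC and related factors, beginning 143 bases before the start, and TGACGTCA, beginning 117 bases before it.
SLC25A36 promoter: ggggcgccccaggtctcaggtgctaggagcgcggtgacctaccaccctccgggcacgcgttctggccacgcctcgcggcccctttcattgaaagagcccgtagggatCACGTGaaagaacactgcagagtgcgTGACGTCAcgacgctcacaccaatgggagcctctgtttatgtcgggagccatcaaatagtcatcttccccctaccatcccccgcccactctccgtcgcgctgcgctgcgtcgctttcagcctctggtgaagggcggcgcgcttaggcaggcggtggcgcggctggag

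Of the 41 members, 34 matched at least 1 RefSeq promoter (250 bases before to 50 after a start), 45 promoters in all. TGACGTCA was looked for after these sequences had been seen, so its share among members cannot be read as enrichment. TGACGTCA occurred on either strand in the promoters of SLC25A25, SLC25A33 and SLC25A36 (3 of 45, 6.67%), beside 1.85% of all 35116 promoters, and SLC25A33 did not pass the test. The other promoters of SLC25A25 and that of SLC25A27, also called higher, held no match. CACGTG occurred in 8 member promoters (17.8%), beside 7.26% of all. Of these 8 genes, SLC25A36 and SLC25A22 rose, and SLC25A13, SLC25A26, SLC25A33, SLC25A38, SLC25A46 and SLC25A51 did not pass. The letters TGATGNAAT, found at targets of ATF4, and the palindromic NRF1 motif occurred in none of the 45, beside 0.991% and 1.24% of all promoters. A match is a run of letters and not a bound site.

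SLC25A27 (UCP4) belongs to the branch of uncoupling protein relatives and is best known from the brain. It had 12.6, 13.2 and 15.7 CPM in DMSO and 39.4, 33.3 and 30.7 CPM after MPM-1. The groups did not overlap, and the log2 change was 1.31 ± 0.13 (SE; adjusted p = 3.44e-05, edgeR), or 1.22 to 1.42 with one library left out. It lies on chromosome 6 at 46652915 to 46678193, plus strand (ENSG00000153291).

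SLC25A48, linked to choline uptake into mitochondria, was among the least abundant members, with 73, 87 and 94 counts in DMSO and 28, 26 and 30 counts after MPM-1. The log2 change was -1.31 ± 0.28 (SE; adjusted p = 0.00314, edgeR). The value hardly moved, between -1.36 and -1.25, with one library left out. The adjusted p was 0.0158 without DMSO replicate 3, 0.0109 without MPM-1 replicate 2 and 0.0126 without MPM-1 replicate 3, so the call was lost each time. The gene (ENSG00000145832) spans chromosome 5 from 135579202 to 135889770 and overlaps AC034206.1 and AC114296.1 on its own strand, so reads could have been divided between them.

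**Figure D2:**
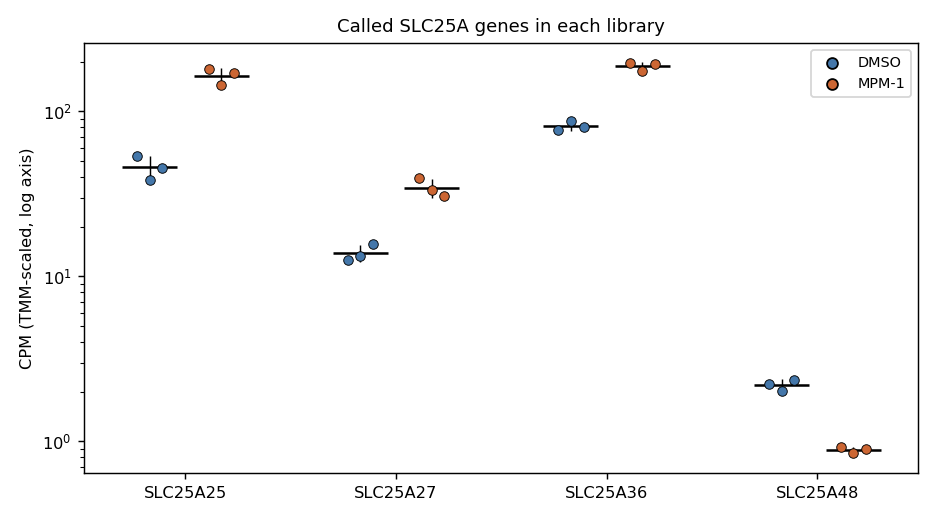
CPM on a log axis of 4 of the 5 called SLC25A genes in each library, DMSO in blue and MPM-1 in orange, with the mean and SD of 3 libraries. In each gene the 2 treatments are apart, with SLC25A25 at 38.0 to 53.8 CPM in DMSO and 143 to 179 CPM after MPM-1.

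The ADP/ATP carriers bring ADP into the matrix and export ATP. SLC25A5 (ANT2), the form typical of dividing cells, was the most abundant member at 550 ± 17 FPKM in DMSO (fragments per kilobase, relative to library size; SD, n = 3), a scale on which genes can be compared. It had 549, 534 and 568 FPKM in DMSO and 404, 381 and 389 FPKM after MPM-1. On counts it fell by 0.34 on the log2 scale (SE 0.069; adjusted p = 0.00245, edgeR). SLC25A6 (ANT3), the ubiquitous form, had 250, 246 and 260 FPKM in DMSO and 253, 244 and 246 FPKM after MPM-1. Its log2 fold change of 0.13 did not pass (95% interval -0.02 to 0.28), and it was -0.022 with scaling by library size alone and -0.024 on log2 FPKM. SLC25A4 (ANT1), the muscle form, was at 7.67 ± 0.47 FPKM in DMSO and fell by 0.34 on counts. On FPKM it did not pass, with MPM-1 replicate 2 at 10.3 FPKM beside 5.01 and 5.80.

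SLC25A5 thus made up 68.1%, 67.8% and 67.9% of the summed FPKM of the ADP/ATP carriers in DMSO and 61.0%, 59.9% and 60.6% after MPM-1. SLC25A6 made up 31.1%, 31.2% and 31.1% in DMSO and 38.2%, 38.5% and 38.5% after MPM-1. For both, the 2 treatments were apart by far more than the libraries of one treatment differed. An exact two-sided permutation test gave p = 0.1 for each, the smallest that 3 libraries against 3 allow. SLC25A4 held only 0.95% in DMSO and 1.09% after MPM-1, so the 2 shares mirror each other and the second test adds nothing. The SLC25A6 share rose although its own mean FPKM was 252 in DMSO and 248 after MPM-1. GENCODE lists 9 pseudogenes of SLC25A5 and 6 of SLC25A6, with which reads could have been shared. The creatine kinases, which draw on this ATP, were also lower: CKB fell by 1.01 on the log2 scale. CKMT1A (-1.56) and CKMT1B (-1.61) fell too, from low levels of 2.62 and 2.54 CPM in DMSO. CKMT1A and CKMT1B are near-identical copies that the counting may not separate.

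SLC25A3 carries the phosphate used for ATP synthesis. It was the second most abundant member, at 470, 324 and 463 FPKM in DMSO and 250, 269 and 293 FPKM after MPM-1, so DMSO replicate 2 lay nearer the MPM-1 libraries on this scale. In CPM the DMSO libraries were close together at 744, 728 and 702, against 527, 548 and 536, a log2 fold change of -0.43 (adjusted p = 0.000357, edgeR).

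Among the calcium-regulated ATP-Mg/phosphate carriers, no paralog of SLC25A25 passed as higher. SLC25A23 fell by 0.36 on the log2 scale (adjusted p = 0.00776, edgeR). SLC25A24 had a value of -0.08 (95% interval -0.31 to 0.16), which did not pass. SLC25A41 had at most 61 counts in a library and did not pass. On the FPKM scale SLC25A25 went from the smallest share of the 3 abundant paralogs, 23.3% ± 3.78, to the largest, 55.7% ± 2.17 (SD, n = 3 each). SLC25A23 went from 40.4% ± 1.72 to 21.1% ± 0.38. Each of the 3 shares was non-overlapping between treatments, but they are not independent, since a rise of SLC25A25 alone lowers the others. The summed FPKM of the 4 genes was 58.4 ± 0.95 in DMSO and 78.7 ± 5.90 after MPM-1.

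Of the pyrimidine nucleotide carriers, SLC25A36 rose while SLC25A33 had a log2 fold change of 0.07 (95% interval -0.11 to 0.26), which turned to -0.078 with scaling by library size alone. The share of SLC25A36 in their summed FPKM was 60.5%, 61.1% and 62.2% in DMSO and 77.9%, 74.7% and 80.2% after MPM-1.

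**Figure D3:**
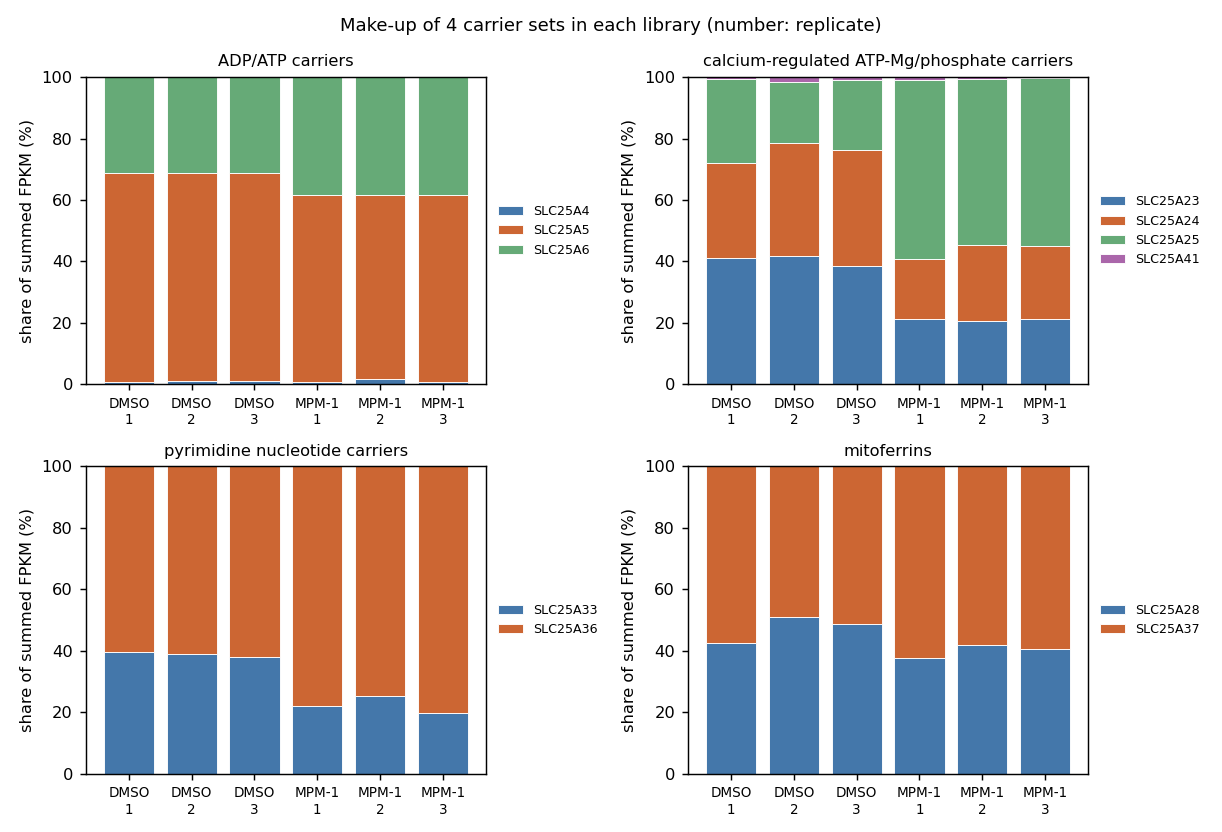
Share of each gene in the summed FPKM of its carrier set, for each of the 6 libraries as stacked bars. SLC25A25 takes 19.8% to 27.3% of its set in DMSO and 54.2% to 58.2% after MPM-1, while SLC25A5 falls from a mean of 67.9% to 60.5% of the ADP/ATP carriers.

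The carriers of citrate, dicarboxylates and oxoglutarate link the citric acid cycle with the cytosol. All 3 listed members fell, beside 28.8% of all genes. SLC25A1, the citrate carrier that feeds cytosolic acetyl-CoA for lipid synthesis, went from 156, 154 and 149.6 CPM to 78.5, 84.2 and 91.1 CPM, a log2 change of -0.86 ± 0.079 (SE; adjusted p = 2.16e-05, edgeR). SLC25A10, the dicarboxylate carrier, had 55.7, 60.4 and 63.2 CPM in DMSO and 31.7, 35.2 and 32.9 CPM after MPM-1, a log2 fold change of -0.85. SLC25A11, which exchanges oxoglutarate for malate, had 80.0, 83.4 and 81.8 CPM in DMSO and 53.0, 53.5 and 54.7 CPM after MPM-1, a log2 fold change of -0.60. None of the 3 had overlapping groups, as was so for 64.3% of all genes. None reached a log2 fold change of 1 in size, except that SLC25A1 did with scaling by library size alone (-1.01).

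Enzymes on either side of these carriers went both ways. CS, the first enzyme of the cycle, fell by 0.57, MDH2 by 0.61 and GOT2 by 0.71 on the log2 scale, and IDH2, the mitochondrial NADP-dependent isocitrate dehydrogenase, was called lower at -1.05. IDH1, its cytosolic counterpart, was called higher at 1.41. ACLY, which splits exported citrate, had a value of -0.24 and did not pass (adjusted p = 0.0535, edgeR).

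The aspartate-glutamate carriers of the malate-aspartate shuttle did not pass. SLC25A12 had a log2 fold change of -0.09 (95% interval -0.51 to 0.32). SLC25A13, the more abundant of the pair at 12.6 ± 1.11 FPKM in DMSO, had 0.04 (95% interval -0.17 to 0.25), or -0.11 with scaling by library size alone. SLC25A22, a glutamate carrier, rose by 0.36 (adjusted p = 0.0319, edgeR), but its libraries overlapped, at 74.2 to 93.1 CPM in DMSO and 87.3 to 117 CPM after MPM-1. It no longer passed without DMSO replicate 2, DMSO replicate 3, MPM-1 replicate 1 or MPM-1 replicate 3 (adjusted p of 0.0849 to 0.108), with library size alone (0.13) or on log2 FPKM (0.169 to 0.172).

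Among the carriers of other amino acids and of glutathione, 5 of 7 fell (71.4%, beside 28.8% of all genes) and none rose (beside 27.7%), a description of a small set with no test. The 5 include SLC25A48 (-1.31), described above, which was grouped here although it is linked to choline. SLC25A39, which imports glutathione, was the fourth most abundant member at 190 ± 8.25 FPKM in DMSO and fell by 0.33 on the log2 scale. Its paralog SLC25A40 went from 26.6, 33.2 and 32.5 CPM to 19.0, 15.3 and 19.4 CPM, a fall of 0.78. SLC25A40 overlaps DBF4 on the other strand, which had 56.8 CPM in DMSO and 38.7 CPM after MPM-1, so reads could have been shared. Of the summed FPKM of SLC25A39 and SLC25A40, SLC25A39 kept 95.9% ± 0.71 in DMSO and 97.0% ± 0.30 after MPM-1. The glutathione-making enzymes GCLC (0.88) and GSS (0.52) rose. SLC25A44, a carrier of branched-chain amino acids, had 22.6, 20.2 and 20.6 CPM in DMSO and 13.3, 14.2 and 12.96 CPM after MPM-1, a fall of 0.64. SLC25A15, which exchanges ornithine and citrulline, fell by 0.58 (adjusted p = 0.0393, edgeR). It no longer passed without DMSO replicate 1, DMSO replicate 2, MPM-1 replicate 2 or MPM-1 replicate 3 (adjusted p of 0.0666 to 0.147). The gene has 5 annotated pseudogenes. ODC1, which turns cytosolic ornithine into putrescine, was called higher at 1.58. SLC25A29, a carrier of basic amino acids (0.13), and SLC25A38, a glycine carrier needed for heme synthesis (-0.16), did not pass.

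Of the carriers of fatty acyl groups, SLC25A20, which exchanges acylcarnitine for carnitine, had 39.4, 32.3 and 33.9 CPM in DMSO and 22.1, 24.6 and 30.6 CPM after MPM-1. It fell by 0.45 (adjusted p = 0.0163, edgeR), with adjusted p of 0.0562 to 0.0583 in fits lacking DMSO replicate 1, MPM-1 replicate 1 or MPM-1 replicate 2. CPT2, which acts next on its substrate, fell by 0.94. CPT1A, the step before it, had a value of 0.093 and did not pass, nor did CPT1B (0.085). The fatty acid oxidation enzymes ACADVL (0.61), HADHB (0.63) and HADHA (0.36) rose, while CRAT (-0.50) fell, so this route went both ways. CPT1C, a related protein of the endoplasmic reticulum, was called lower at -2.82 from 3.92 CPM in DMSO. SLC25A45 had at most 52 counts in a library and did not pass.

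The mitoferrins import iron for heme and iron-sulfur clusters. SLC25A37 (mitoferrin-1), the form best known from red cell precursors, had 78.0, 61.9 and 67.9 CPM in DMSO and 119, 99.4 and 107 CPM after MPM-1. It rose by 0.65 on the log2 scale (SE 0.10; adjusted p = 0.000588, edgeR), with all MPM-1 libraries above all DMSO libraries. SLC25A28 (mitoferrin-2), the widely expressed form, had 26.1 ± 1.23 and 28.5 ± 0.43 CPM (SD, n = 3 each) and did not pass, and its small positive value (0.13) turned to -0.025 with library size alone. In heme synthesis ALAS1, the first enzyme, was called higher at 1.26, while PPOX (-0.61) and FECH (-0.52), the last steps, fell.

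Of 9 carriers of nucleotides and coenzymes, 1 was called higher and 1 lower (22.2%, beside 14.3% of all genes). Besides SLC25A36 and SLC25A33, described above, SLC25A16 and SLC25A42, tied to coenzyme A, had values of 0.19 and -0.30, SLC25A51, the NAD carrier, had -0.25, SLC25A26, which imports S-adenosylmethionine, had 0.17, SLC25A32, tied to folate and FAD, had -0.12, and SLC25A17 of the peroxisome had -0.13, none of which passed the test. NAMPT, which recycles nicotinamide into NAD, was called higher at 2.04. Of the enzymes that start coenzyme A synthesis, PANK1 (8.80 CPM in DMSO) was called lower at -1.24. The more abundant PANK3 (116 CPM) fell by 0.57, and PANK2 (24.2 CPM) did not pass (-0.061). Of the uncoupling protein relatives other than SLC25A27, SLC25A30 fell by 0.66 (adjusted p = 0.0152, edgeR, and 0.0702 without DMSO replicate 2), and SLC25A14 (-0.05) did not pass. The outer membrane protein SLC25A46 and SLC25A34, SLC25A35 and SLC25A43 did not pass, at -0.50 to 0.30.

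The order of levels within the family changed below its top. By mean FPKM, SLC25A25 went from rank 20 to rank 6 of 41, SLC25A27 from 24 to 12 and SLC25A36 from 18 to 8. SLC25A10 went from 7 to 18. The first 5 places (SLC25A5, SLC25A3, SLC25A6, SLC25A39 and SLC25A1) stayed in the same order. The summed FPKM of the family was 2005, 1832 and 2031 in DMSO and 1529.8, 1501 and 1556 after MPM-1. FPKM is relative to library size, a scale on which the median of all genes also fell (-0.17 on log2(FPKM + 0.1) without a filter). SLC25A5, SLC25A3 and SLC25A6 held 62.4% ± 1.84 of the family's sum in DMSO and 59.5% ± 0.17 after MPM-1.

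**Figure D4:**
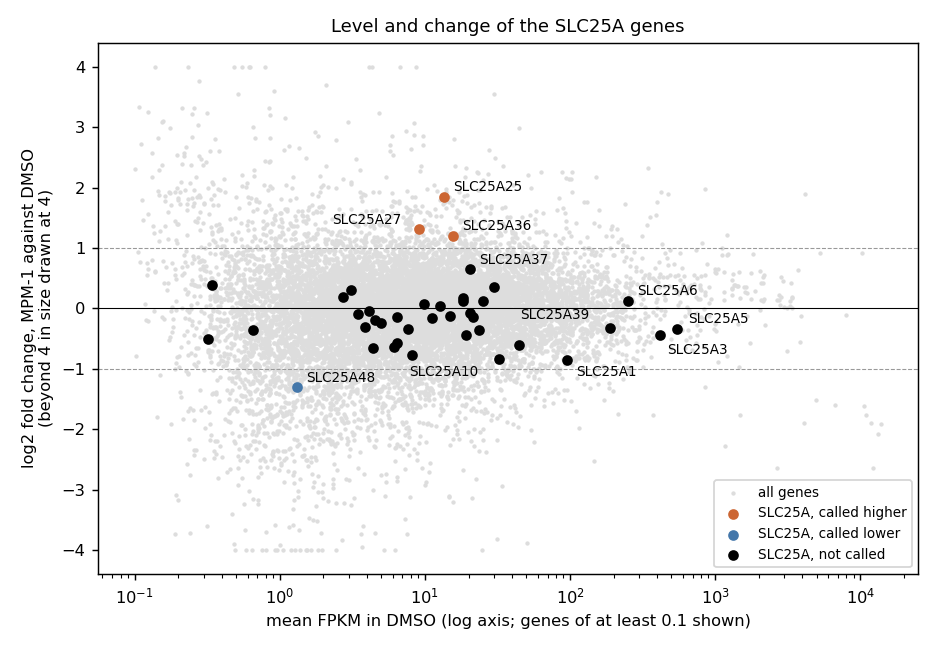
Log2 fold change against mean FPKM in DMSO for 40 of the SLC25A genes (large points) and all genes of at least 0.1 FPKM (grey). The most abundant member, SLC25A5 at 550 FPKM, lies at -0.34, and the called members drawn lie between 1.32 FPKM (SLC25A48) and 15.6 FPKM (SLC25A36).

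Other transport genes of mitochondria were set beside the family. Of 26 listed, 1 was called higher and 1 lower (7.69%, beside 14.3% of all genes), and 15 passed an adjusted p of 0.05 (57.7%, beside 56.5%). Of these, 5 rose (19.2%, beside 27.7%) and 10 fell (38.5%, beside 28.8%). The one called higher was GHITM, an inner membrane protein of calcium handling, from 367 to 844 CPM (1.20). The one called lower was UCP2, an SLC25 protein by sequence that carries another symbol, from 43.9 to 14.0 CPM (-1.65). MPC1, a subunit of the pyruvate carrier, rose by 0.88, and its partner MPC2 (-0.022) did not pass. Of the outer membrane channels VDAC2 rose by 0.61, VDAC3 fell by 0.74 and VDAC1 (0.058) did not pass. The median log2 fold change of the 26 genes was -0.13. Of 54 partner enzymes, 4 were called higher and 6 lower (18.5%), with a median of -0.033.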

How the data were processed

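RNA from SW480 cells was sequenced in 3 libraries per treatment. The authors deposited 1 table with raw counts and FPKM per gene and library, together with a fold change and an adjusted p-value of their own, which were not used. The submitters' processing notes name HISAT2 and DESeq2, and the mouse build mm10, although 12127 identifiers in the table are human Ensembl genes. The counter, annotation, strand setting and filter are not given in the sources used here, so positions were taken from GENCODE release 29 and promoters from RefSeq.

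Counts were fitted over all 12982 genes with edgeR 4.0.16 (R 4.3.3), TMM scaling, 6 libraries and no covariate, with Benjamini-Hochberg adjustment. FPKM served for levels between genes and for limma 3.58.1 on log2(FPKM + 0.1), where fold changes of low genes are understated. DESeq2 1.42.0, other scalings, a minimum mean of 50 counts, a replicate block and left-out libraries were alternatives. The scripts were tested on simulated counts. Values of 1 member and 1 partner enzyme are not reported here. The other members were named with their role, with full statistics for called ones. From the other lists, called genes and enzymes next to a carrier or on its route were named, the latter and the channels after their values were seen. Members and lists were chosen with earlier results of these data known. Counting error weighs most on scarce members: at totals of 31733667 to 40269820 counts, SLC25A34, SLC25A41 and SLC25A45 had at most 61 counts in any library. Libraries of one treatment differed by more than counting error alone, with 15.4 to 33.2 in chi-square per gene, and were kept as replicates. The Dixon check needs 4 samples and was not run.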

Additional observations from a re-analysis of the deposited data

How the results depend on the processing

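Of 604 values of members under alternative settings, 570 kept their direction and their side of the call threshold. SLC25A25, SLC25A27 and SLC25A36 were called in every setting run, and 3 members were called higher with any 1 library left out. The number called lower was 1 with limma on log2(FPKM + 0.1) with a mean of at least 1, 1 with limma on log2(FPKM + 1), where SLC25A48 fell under the minimum, and 1 to 2 with one library left out. At an adjusted p under 0.05 without a fold threshold, 5 of 41 members rose (12.2%) and 15 fell (36.6%). Of all genes 27.7% rose and 28.8% fell. Of 26 other transport genes 5 rose (19.2%) and 10 fell (38.5%), and of 54 partner enzymes 18 rose and 18 fell (33.3% each). Other transport genes called lower numbered 4 with library size alone, 2 with the DESeq2 Wald test, 3 with limma on log2(FPKM + 0.1), filtered or not, and 1 to 2 with one library left out. Partner enzymes called lower numbered 3 with limma on log2(FPKM + 1) and 3 to 6 with one library left out.

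The replicate numbers did not pair the samples (correlations of same-numbered libraries 0.0214, 0.114 and -0.0737). With the replicate block, 1 member was called lower, since SLC25A48 had an adjusted p of 0.0103, and 2 other transport genes were. SLC25A15 had an adjusted p of 0.0560 in that fit.

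The members' median log2 change was -0.14 with DESeq2 size factors, -0.14 with the DESeq2 Wald test and -0.31 with library size alone. It was -0.28 and -0.30 with limma on log2(FPKM + 0.1), with and without the filter, -0.26 on log2(FPKM + 1), and -0.22 to -0.11 with one library left out. Library size alone shifted the median of all genes by -0.15 and gave 537 genes higher and 1470 lower (26.8% higher), beside 725 and 1136 (39.0%), and limma on log2(FPKM + 0.1) without the filter gave 532 and 1430 (27.1%). SLC25A1 then passed the call at -1.01. SLC25A38 and SLC25A42 passed an adjusted p of 0.05 with library size alone and on log2 FPKM, SLC25A17 with library size alone and without DMSO replicate 1, and SLC25A51 on log2(FPKM + 0.1) with the filter.

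Changes of sign touched 10 members, none past an adjusted p of 0.05. With library size alone they were SLC25A29 (-0.025), SLC25A6 (-0.022), SLC25A28 (-0.025), SLC25A33 (-0.078) and SLC25A13 (-0.11). On log2(FPKM + 0.1), filtered or not, and on log2(FPKM + 1) they were SLC25A16 (-0.020 and -0.014), SLC25A29 (-0.0075 and -0.0074), SLC25A6 (-0.024 and -0.024), SLC25A28 (-0.022 and -0.021), SLC25A33 (-0.081 and -0.074) and SLC25A13 (-0.11 and -0.11). SLC25A32 (0.040), SLC25A24 (0.011) and SLC25A12 (0.063) turned without MPM-1 replicate 1, SLC25A14 without DMSO replicate 2 (0.024) and without MPM-1 replicate 2 (0.12), and SLC25A13 without DMSO replicate 1 (-0.013). With one library left out the values ran from -0.21 to 0.040 for SLC25A32, -0.16 to 0.011 for SLC25A24, -0.24 to 0.063 for SLC25A12, -0.13 to 0.12 for SLC25A14 and -0.013 to 0.12 for SLC25A13. The SLC25A6 share rose by 8.02 percentage points in CPM and 7.57 in counts per kilobase, and by 7.19 to 7.31 in FPKM with one library left out. The cause of these differences was not tested.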
